A study of Pyrus communis with 6 samples.

Results

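Of the 21681 probes of a European pear (Pyrus communis) oligonucleotide array, 855 are named by a public nucleotide sequence record, such as AF195229.1, and 274 of these 855 make up the set described here. The members are the record-named probes whose mean over the 6 arrays in the authors' value table was at least -3 on its log2 scale, where 0 is the 75th percentile of an array. The members were thus chosen by their level, and their levels and detection are given as a description with no test. The difference between cultivars took no part in the choice. The arrays compare 'La France' with 'Giant Laf', a bud mutant of 'La France', on 3 single-colour arrays each, which GEO's design text calls biological replications. All 6 RNA samples came from the receptacle of flower buds, cut out by laser microdissection 1 week before full bloom in 2010, from trees under standard orchard management. The labels give no ploidy, no mutated locus and no number of trees, and they do not say whether the replicates came from different trees.

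A bud mutant arises when a somatic mutation in one shoot is kept by vegetative propagation, so that it shares nearly all of its genome with the parent cultivar. The receptacle is the flower's base, and in pear the tissue around the ovary grows into the flesh of the fruit. A public record holds one sequence that a laboratory submitted, and laboratories often submit many related sequences at once under neighbouring numbers. Several records can thus stand for alleles of 1 gene, members of 1 family or copies of 1 repeated element. The files give a record number but no sequence and no gene name for these probes, and 0 of the 840 records matched the 42167 genes of the reference table. No gene is named here for that reason, and no marker of receptacle or of another tissue could be checked.

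The levels below are log2 processed signal minus the 75th percentile of the same array. Values of 3 arrays are given in replicate order throughout. The 75th percentile of the signal lay between 799 and 1639 on single arrays. Its log2 averaged 10.30 (SD 0.35) over the Giant Laf arrays and 9.96 (SD 0.38) over the other 3, a gap of 0.34 that the scaling removes from every level. Slide 1 held the 3 Giant Laf arrays and La France replicate 1, and slide 2 held La France replicates 2 and 3. No spot was saturated, and the scanner software marked 3 to 28 of 43482 spots per array as outliers. The share of all probes marked well above background was 73.9% to 77.2% per array.

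The members were bright probes with a wide range. Their mean level ran from the threshold to 8.50, with quartiles of -0.43 and 5.77 and a median of 2.66. The 11539 probes with other kinds of identifier that passed the same threshold had a median of -0.26 and quartiles of -1.53 and 1.27. Probe brightness depends on the oligonucleotide as well as on the transcript, so these levels rank probes and not transcripts. On single arrays the median over members was 2.47, 2.50 and 2.45 in Giant Laf, against 2.77, 2.73 and 2.47 in La France. The members fell into layers, with 70 of them (25.5%) between 5 and 6.5 and 31 (11.3%) between 6.5 and 9. Of the probes with other identifiers, 141 (1.22%) and 100 (0.867%) lay in these ranges.

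All 274 members were well above background on all 6 arrays and in every spot, as were all 11539 probes with other identifiers past the same threshold, so that the level that chose the members fixed their detection. Of the 581 record-named probes below the threshold, 94 (16.2%) were well above background on all 6 arrays, 388 on none and 99 on 1 to 5 arrays. All 3 Giant Laf arrays marked 104 of these 581, and all 3 La France arrays marked 96. The median level of these 581 probes was -8.38, so that most of them lay far from the threshold. The members just inside it were AB042108.1 and DQ230994.1, both with a table mean of -2.98, and the probes just outside were DQ251189.1 and AB204876.1, both at -3.01.

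The brightest member was AY168822.1 with a mean level of 8.50, followed by AF179398.1 at 8.40 and AF179385.1 at 8.35. The letters that open a record number show the block of numbers it was issued from, and the share of members differed between these blocks. Members were 63 of 89 probes with the letters AF (70.8%), 68 of 140 with EU (48.6%), 74 of 260 with AB (28.5%) and 31 of 103 with AY (30.1%). Only 17 of 92 with DQ, 8 of 54 with BD, 6 of 44 with EF and 2 of 35 with AJ were members. None of the 7 probes with FJ was. The other 7 blocks held 31 probes and 5 members.

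Neighbouring record numbers often lay on the same side of the threshold. When records with the same letters and at most 10 numbers apart were joined into a run, the 855 probes formed 230 runs, 47 of which held at least 5 probes. In 24 of these 47 runs, with 208 probes, no probe was a member. In 4 runs every probe was a member, and these 4 held 86 of the 274 members. The other 19 runs were mixed, with 93 members among 254 probes. The longest of the 4 runs is EU150025.1 to EU150099.1, with 48 probes at levels from 1.49 to 6.78. AF179382.1 to AF179400.1 has 19 probes between 7.77 and 8.40. EU149949.1 to EU149967.1 has 10 probes between 5.68 and 5.79, and AF287238.1 to AF287247.1 has 9 between 5.71 and 5.83. With a limit of 1 number between neighbours, 6 runs of at least 5 probes consisted of members alone (67 members), and with a limit of 50 there were 3 (90 members).

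Many members gave nearly the same reading as another member on every array. Of the 37401 possible pairs of members, 833 differed by at most 0.1 log2 units on each of the 6 arrays, where the median gap between the 2 spots of a single member was 0.062 to 0.069 on an array. Joining such pairs placed 97 members in 12 groups and left 177 on their own, so that 274 probes gave 189 separate profiles. Pairs were joined in chains, so that a group can span more than 0.1. The number of profiles was 223 when the pairs had to lie within 0.05, and 175 within 0.15. Within 0.05 there were 8 groups with 59 members, the largest of 45 and the next of 2. Within 0.15 there were 17 groups with 116 members, the largest of 53 and the next of 24. The groups after the largest thus depend on the limit of 0.1. These groups were formed on the values themselves and are a description of the probes, with no test. Without probe sequences, whether the members of a group hold the same oligonucleotide or bind the same transcript was not tested.

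The largest group held 51 members, all of them from the AF287, EU149 and EU150 records, at mean levels from 5.68 to 5.83. Its median level was 5.30, 5.77 and 6.43 in Giant Laf, against 5.64, 5.54 and 5.92 in La France. Giant Laf replicate 3 was the highest array and Giant Laf replicate 1 the lowest, so the cultivars overlapped and the La France arrays lay inside the Giant Laf range. The SD over 3 arrays had a median of 0.57 for Giant Laf, against 0.20 for La France. As deviations from its mean over the arrays, the group lay at -0.47, 0.01 and 0.67 in Giant Laf, against -0.12, -0.24 and 0.16 in La France. The 141 probes with other identifiers at levels between 5 and 6.5 had median deviations of -0.22, -0.09 and 0.10 in Giant Laf, against 0.18, -0.03 and 0.14 in La France. On Giant Laf replicates 1 and 3 the 51 thus lay farther from their mean than the median of other probes as bright. Of the 11539 probes with other identifiers, 0 had the group's deviation within 0.1 on every array, while 4 members outside the group did.

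The next group held 13 members from AF179382.1 to AY168824.1, at levels from 8.08 to 8.35. Its median level was 7.70, 8.09 and 8.32 in Giant Laf, against 8.57, 8.16 and 8.45 in La France. Giant Laf replicate 1 was its lowest array and La France replicate 1 its highest. A group of 7 from AF179383.1 to AF195619.1, at levels from 7.90 to 8.00, deviated from its mean over the arrays by -0.54, -0.09, 0.10, 0.37, -0.05 and 0.24 from Giant Laf replicate 1 to 3 and then La France replicate 1 to 3. The 13 gave deviations of -0.54, -0.11, 0.10, 0.38, -0.07 and 0.23, close to those of the 7. This profile was not particular to record-named probes, since 36 probes with other identifiers shared that of the 13 and 37 that of the 7.

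The remaining groups were small. The 7 members from EU150092.1 to EU150099.1 lay between 6.19 and 6.31, and 3 members from EU150078.1 to EU150081.1 between 3.52 and 3.59, 0.79 above their mean on Giant Laf replicate 3. A group of 4 (AF386508.1, DQ146445.1, DQ146447.1 and DQ149930.1) lay near the threshold, between -2.51 and -2.43. Of the 6 pairs, 2 were a record and its repeat. Probes with other identifiers shared the deviations of some small groups, with 255 for the group of 4, 345 for the pair of AB013353.1, 56 for that of AY338257.1 and 0 to 4 for each of the others. The array carries 15 records a second time as probes of 10 spots, where other probes have 2, and both forms of AB013353.1 and AB014073.1 were members. AB013353.1 had a mean level of 1.43 with 2 spots and 1.44 with 10, and the forms differed by at most 0.019 on an array. AB014073.1 had -2.92 with both forms, which differed by at most 0.098 on an array. The pairs AB093032.1 with EF602031.1 and AB239589.1 with AB334115.1 joined records of distant numbers, while the pairs of AY338257.1 with AY338258.1 and of EU150033.1 with EU150068.1 each came from 1 run. Apart from the same-record pairs, the groups lie outside the rule for named probes and were chosen after their values were seen.

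The members had a higher median spread between arrays of one cultivar than probes with other identifiers, a description with no test. Their SD over the arrays of a cultivar had a median of 0.312 in Giant Laf (quartiles 0.166 and 0.563) and of 0.210 in La France (quartiles 0.151 and 0.299). It was 0.140 and 0.148 in the probes with other identifiers, and 0.162 and 0.175 in all 16339 probes tested. The Giant Laf SD was the larger one in 178 of the 274 members (65.0%), which included all 51 of the largest group. It was the larger in 45.9% of the probes with other identifiers and in 45.9% of all tested probes. In the 177 members outside the groups the medians were 0.217 and 0.245, and the Giant Laf SD was the larger in 85 (48.0%). After quantile normalization the medians over members were 0.191 and 0.160, and without La France replicate 3 the La France median was 0.106. Over members, Giant Laf replicate 1 was the lowest of the 6 arrays for 128 and Giant Laf replicate 3 the highest for 93. Outside the groups they were so for 44 and 29 of the 177, and La France replicate 1 was the highest for 52. Among the 11539 probes with other identifiers these 3 counts were 2119, 1736 and 1948. An SD above 1 was reached by 11 members in Giant Laf and by 5 in La France, against 414 and 236 of all 16339 tested probes.

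AF195204.1 had the largest spread. Its level was -2.55, -4.57 and -3.55 in Giant Laf and 0.43, -0.23 and -4.62 in La France, so that La France replicate 3 lay with the Giant Laf arrays and the cultivars overlapped. Its La France SD was 2.75. DQ230991.1 came next, with -2.93, -2.42 and -2.88 in Giant Laf and -4.51, -4.03 and -0.89 in La France, where replicate 3 was the highest of all 6 arrays. The most even members were EU021507.1 and AF386525.1. EU021507.1 lay between -0.69 and -0.59 on all 6 arrays, and AF386525.1 between 0.51 and 0.63. On Giant Laf replicate 2, 4 members lay at least 1 log2 unit above every other array and 1 lay that far below, as did 42 and 36 of the 11539 probes with other identifiers. La France replicate 2 lay that far below for 2 members and La France replicate 3 that far above for 1.

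The cultivar comparison asks which of these probes differ between the bud mutant and its parent. It was tested with limma on all 16339 probes that were well above background on at least 3 arrays, with all 274 members among them. No member passed a Benjamini-Hochberg adjusted p of 0.05 in limma, where 0% of all tested probes did, and the smallest adjusted p of a member was 0.256. An unadjusted p below 0.05 was reached by 37 members (13.5%), against 16% of all tested probes and 14.6% of those with other identifiers above the threshold. These members were thus called about as often as other probes. Among the 37, 25 were higher in Giant Laf (9.12% of members, against 10.6% of all tested probes) and 12 lower (4.38% of members, against 5.36%). Quantile normalization (24 and 11), cyclic loess (21 and 12) and normexp correction (25 and 20) kept the direction of that split, and median centring turned it, with 15 higher and 33 lower. It also turned with array weights (26 and 38), without Giant Laf replicate 3 (22 and 32) and without La France replicate 3 (24 and 40). With slide as a block the differences rest on the La France array of slide 1 alone, as they do within slide 1. Within slide 1 La France was also assumed to vary like Giant Laf. The median log2 difference over members was -5.3e-05 under either setting, and no direction of the split is read from either. The p-values measure the spread between these arrays, since the labels do not say whether the RNA samples came from different trees.

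The cultivars did not overlap in 45 members (16.4%), against 22.3% of all tested probes. Of these, 28 were higher in Giant Laf (10.2% of members, against 13.9% of all tested probes) and 17 lower (6.20% of members, against 8.4%). A difference of at least 2-fold was seen in 8 members (2.92%), against 2.32% of all tested probes. Of the 8, 1 also had an unadjusted p below 0.05 in limma (0.365% of members, against 1.47% of all tested probes). As a log2 difference, Giant Laf minus La France, the median was 0.0037 over the members and 0.024 over all tested probes. It was above 0 in 137 members and below 0 in the other 137, with quartiles of -0.30 and 0.16. Without Giant Laf replicate 3 the median over members was -0.16.

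These shares differed between members with and without shared readings. Of the 97 members in groups, 2 reached an unadjusted p below 0.05 (2.06%), and of the 177 outside the groups 35 did (19.8%). Taking each profile once, 36 of 189 (19.0%) held such a member. The groups were formed on the values that were tested, so these shares are a description. The tested probes of each run of neighbouring records were also averaged to 1 value before the fit. Of the 86 runs with a member, 13 (15.1%) had an unadjusted p below 0.05 in limma, against 16.2% of 16070 features. The 116 tested record-named probes below the threshold entered the averages of their runs too.

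The members of smallest p were compared one by one. They were picked for that p, which tends to overstate the differences, and none passed the adjusted threshold. AF195229.1 had levels of 0.68, 0.79 and 0.95 in Giant Laf and 0.06, -0.01 and 0.22 in La France. Every Giant Laf array lay above every La France array, and the gap between the cultivars was wider than the spread within either. The difference on the log2 scale was 0.71 (standard error 0.12, 95% interval 0.42 to 1.00, 1.64-fold, adjusted p = 0.256 in limma).

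AY338250.1 had levels of 3.45, 3.47 and 3.13 in Giant Laf and 2.66, 2.54 and 2.79 in La France, again without overlap. Its log2 difference was 0.69 (standard error 0.14, 95% interval 0.36 to 1.02, 1.61-fold, adjusted p = 0.256 in limma). AB093029.1 was lower in Giant Laf, at 0.99, 0.41 and 0.77 against 1.91, 1.84 and 1.51. Its log2 difference was -1.03 (standard error 0.19, 95% interval -1.48 to -0.57, 2.04-fold, adjusted p = 0.256 in limma), and it was the member that joined a 2-fold difference with an unadjusted p below 0.05. AB095368.1 was lower too, at 1.92, 2.46 and 2.39 against 3.30, 3.26 and 2.96. Its log2 difference was -0.92 (standard error 0.18, 95% interval -1.36 to -0.48, 1.89-fold, adjusted p = 0.256 in limma). Within slide 1, where La France replicate 1 is the only La France array, the 4 differences were 0.74, 0.70, -1.19 and -1.05.

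The other 7 members at least 2-fold apart did not reach an unadjusted p below 0.05 in limma, and they are named here after their values were seen. AB045710.1 had 1.21, 3.19 and 1.46 in Giant Laf and 0.99, 1.05 and 0.80 in La France, with Giant Laf replicate 2 far above the rest. AY224133.1 had -1.14, 1.05 and -0.12 against -1.04, -1.29 and -1.37, and again Giant Laf replicate 2 was the highest array. AB265797.1 and EU150077.1 were higher in Giant Laf by 1.03 and 1.02 on the log2 scale. In EU150077.1 La France replicate 2 stood apart at 0.19, where the other La France arrays had 1.49 and 1.25. AB239590.1, AB021788.1 and AF195204.1 were lower, with log2 differences of -1.20, -1.10 and -2.08. The limma adjusted p of these 7 lay between 0.328 and 0.468.

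The 28 members at a level of at least 7.5 had nearly the same signal before scaling on the 3 Giant Laf arrays, and a less even one on the La France arrays. They are all 19 of the run AF179382.1 to AF179400.1, AY168822.1 to AY168824.1, AF195619.1 to AF195622.1, AB021785.1 and D00572.1, a cut chosen after the values were seen. Their median processed signal was 308228, 309740 and 302793 in Giant Laf, against 287194, 351013 and 299736 in La France. The median SD between Giant Laf arrays was 0.025 log2 units before scaling and 0.33 after, and between La France arrays 0.16 before and 0.23 after. Without scaling their median log2 difference was -0.018. With scaling it was -0.36 with all 28 lower in Giant Laf, while quantile normalization gave 0.011 with 19 higher and 9 lower. Cyclic loess gave -0.13 with all 28 lower. Without Giant Laf replicate 1 the scaled median was -0.18, and within slide 1 it was -0.56, again with all 28 lower. The scaling lowers every log2 difference by the gap of 0.34 in the log2 75th percentile. The step from -0.018 to -0.36 is that gap, and where the gap came from was not tested. The probes with other identifiers at levels between 6.5 and 9 had a median log2 difference of -0.35 with scaling. With the main scaling 0 of the 28 reached an unadjusted p below 0.05 in limma, against 16% of all tested probes. The count was 7 with median centring, 3 with normexp correction and 9 without Giant Laf replicate 3. The shares of all tested probes were then 16.5%, 11.5% and 19.1%. The group of 13 and that of 7 from AF179383.1 lie among the 28, so these are not separate results.

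The group of 51 had a median log2 difference of 0.13 (range 0.08 to 0.21), with unadjusted p from 0.49 to 0.79 in limma. All 51 were higher in Giant Laf with the main scaling, but with median centring the median was 0.03 with 48 higher and 3 lower. One array decides its direction: without Giant Laf replicate 3 the median was -0.17 and all 51 were lower. The other 246 members beside the 28 brightest had a median of 0.08 with 137 higher and 109 lower, and with median centring 119 were higher and 127 lower. Without Giant Laf replicate 3, 83 of these 246 were higher and 163 lower.

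Other runs of neighbouring records gave smaller sets with their own levels, and they were picked out after their values were seen. The 8 members from AY338247.1 to AY338258.1 were all higher in Giant Laf with the main scaling, with a median log2 difference of 0.29 and 5 of the 8 at an unadjusted p below 0.05, against 16% of all tested probes. That count was 3 with median centring, against 16.5% of all tested probes, and 3 without Giant Laf replicate 2, against 9.5%. It was 2 without La France replicate 2, against 9.33%, and 1 with slide as a block, against 9.62%. With median centring 5 of them were higher and 3 lower, and with quantile or cyclic loess normalization 6 and 2. Without Giant Laf replicate 3 they were 5 and 3. Within this run AY338247.1 and AY338248.1 followed another course, with levels of -2.28, -1.72 and -0.52 and of -2.20, -1.76 and -0.58 in Giant Laf, and they overlapped with La France. Of the 8 members from BD107392.1 to BD107432.1, 6 were higher and 2 lower under every scaling, with a median of 0.33 under the main one. An unadjusted p below 0.05 in limma was reached by 2 of them, against 16% of all tested probes. The count was 1 with median centring, quantile, cyclic loess or normexp. The shares of all tested probes were then 16.5%, 15.3%, 15.6% and 11.5%. All 8 were higher without La France replicate 3, and 7 without Giant Laf replicate 1 or without La France replicate 1. The count at an unadjusted p below 0.05 in limma was then 2, 4 and 3, where 22.7%, 10.2% and 10.5% of all tested probes were. It was 1 without replicate 2 of either cultivar, against 9.5% (Giant Laf) and 9.33% (La France) of all tested probes.

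The 5 members from AB204875.1 to AB204880.1 were all lower in Giant Laf under every scaling, with a median of -0.39 under the main one, where 0 reached an unadjusted p below 0.05 in limma. With median centring 1 did, against 16.5% of all tested probes. Without La France replicate 3 the median was -0.66 and 4 did, against 22.7% of all tested probes. The median was -0.14 without La France replicate 2 and -0.25 without Giant Laf replicate 3. The 8 members from AB021784.1 to AB021794.1 were all lower with the main scaling (median -0.43) and with median centring (median -0.53). Quantile normalization gave 6 lower and 2 higher, and cyclic loess 7 and 1. With the main scaling 0 of these 8 reached an unadjusted p below 0.05 in limma. With median centring or normexp correction 1 did, against 16.5% and 11.5% of all tested probes. Without Giant Laf replicate 3 the count was 3, against 19.1%.

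Neighbouring numbers did not always move together. In the run AB093028.1 to AB093034.1, with 6 members, 2 were lower and 1 higher at an unadjusted p below 0.05 in limma. Of all tested probes, 5.36% were lower and 10.6% higher at that limit. The log2 differences of the 3 were -0.50 for AB093028.1, -1.03 for AB093029.1 and 0.66 for AB093033.1. AB095368.1 was lower in Giant Laf, while its neighbour AB095369.1 was higher by 0.56 on the log2 scale, at levels of -0.86, -1.14 and -1.13 against -1.67, -1.60 and -1.55. In the run AF195204.1 to AF195239.1, which holds AF195229.1, 9 of 14 members were higher and 5 lower with the main scaling, and 7 and 7 with median centring. The run AF386508.1 to AF386525.1 was split 5 and 5 with the main scaling, and 2 higher and 8 lower with median centring.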

How the data were processed

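As deposited by the authors, the scanner files hold the intensity of each spot on single-colour Cy3 arrays, as the processed signal of the scanner software. The headers read here do not state its background subtraction. Per the file headers, the scanner software was Agilent Feature Extraction, version 10.7.1.1. The authors' deposited value table holds log2 values. In each array, at least 99.9% of them equalled the log2 mean signal of a probe's spots minus a constant to within 0.001, and their 75th percentile was 0.0014 to 0.0045. The medians of its columns were -2.40, -2.37 and -2.45 (Giant Laf) and -2.47, -2.51 and -2.52 (La France). No source used here says how the authors chose the constant.

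Control spots and outlier spots were left out, spots of a probe were averaged, and log2 signal minus each array's 75th percentile was fitted with limma 3.58.1 in R 4.3.3 (lmFit and eBayes, two-sided). The fit took 16339 probes well above background in at least 50% of their spots on at least 3 of 6 arrays, with Benjamini-Hochberg adjustment over all of them. The fit was tested on simulated data. The number of arrays limits the precision. The members, lists and tests were chosen with earlier results of these data known.

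Named probes were the 2 of smallest p in each direction, the 3 brightest, the 2 on each side of the threshold, the 2 of largest and the 2 of smallest spread, and the same-record pairs. Normexp correction, planned on mean signals, used the median signals that the files hold. Deviations of arrays with the same replicate number correlated at 0.015, 0.195 and 0.133, so arrays were not treated as paired. Probe sequences were not used here.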

Additional observations from a re-analysis of the deposited data

How the results depend on the processing

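The adjusted count was 0 members in limma under all 19 alternatives. The count of 37 members at an unadjusted p below 0.05 in limma was 23 to 64 when single arrays were left out. These were 8.39% to 23.4% of members, against 9.33% to 22.7% of all tested probes. Leaving out replicate 2 gave 24 (Giant Laf, 8.76% against 9.5%) or 23 (La France, 8.39% against 9.33%). Leaving out replicate 3 gave 54 (Giant Laf, 19.7% against 19.1%) or 64 (La France, 23.4% against 22.7%). Slide as a block, whose differences rest on 1 La France array, gave 21 (7.66% against 9.62%). Array weights gave 64 (23.4% against 26.2%). With both replicate 3 arrays left out the count was 69 (25.2% against 25.2%). With one value per record series, which also averages in tested probes below the threshold, the count was 13. That was 15.1% of 86 features with a member, against 16.2% of all features. The last 2 settings were chosen after seeing the data, as were the other limits for runs and for like readings. The cause of these changes was not tested.

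The median log2 difference ranged from -0.16 (Giant Laf replicate 3 left out) to 0.052 when single arrays were left out. The replicate block gave 0 members at the adjusted threshold. It gave 38 at an unadjusted p below 0.05 in limma (13.9% against 14.7% of all tested probes). The 4 members of smallest p kept their direction under all 19 alternatives, with limma adjusted p from 0.0808 to 0.53, and since their cultivars did not overlap only another scaling or background correction could have turned it. The smallest adjusted p of any member was 0.0691, without La France replicate 3. A threshold of -2 would give 250 members and one of -4 would give 316. The median SD of members without single arrays was 0.251 to 0.331 in Giant Laf and 0.106 to 0.243 in La France, the last range falling to 0.106 without replicate 3. The members' detection was fixed by the level that chose them, so it says nothing about what signal over background limits.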
